A study of Mus musculus with 4 samples.

Results

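Mitochondrial biogenesis in the adult heart is governed by a small set of nuclear genes, 9 of which were followed in mouse hearts in which cardiomyocytes overexpressed Tbx20, a T-box transcription factor. The 9 genes, Ppargc1a, Ppargc1b, Perm1, Nrf1, Gabpa, Tfam, Tfb2m, Tfb1m and Polg, were chosen by name and with their values in these libraries already known, so their differences between groups are described and not tested. All 9 were found among the 23439 gene symbols used, and all 9 were among the 10513 genes with a mean of at least 1 FPKM over the 4 libraries (fragments per kilobase of transcript, set against all fragments mapped in a library). The heart depends on a dense supply of mitochondria for fatty acid oxidation and contraction. The PGC-1 coactivators carry no DNA-binding domain of their own. They dock on nuclear receptors such as the ERRs and on the nuclear respiratory factors, which switch on respiratory chain genes together with the factors that copy and transcribe mitochondrial DNA.

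Hearts were taken from mice aged 12 weeks, with induction at 8 weeks and therefore 4 weeks of overexpression. The 2 Tbx20_OE hearts had the genotype alphaMHCMerCreMer+/-;CAGCATTbx20, and the 2 control hearts had alphaMHCMerCreMer+/-. Both groups thus carried the tamoxifen-regulated Cre driven in cardiomyocytes by the alpha myosin heavy chain promoter, and only the Tbx20_OE hearts carried the Tbx20 transgene. Whether control mice also received the inducing agent is not given in the sources used here. Each library came from 1 heart, and with 2 hearts a group an exact two-sided permutation test cannot give a p below 0.333.

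Tbx20 itself measured 11.0 and 16.4 FPKM in the Tbx20_OE hearts, against 6.99 and 4.58 FPKM in the control hearts, so its groups did not overlap. Its log2 fold change was 1.11 ± 0.30 (SE), and its Benjamini-Hochberg adjusted p was 0.848 (limma). Of the 4 libraries, control replicate 2 stood apart: its Pearson correlation with the others across genes was 0.927 to 0.957, whereas those among the other libraries were 0.981 to 0.982. A set of 8 atrial muscle markers summed to 254 and 143 FPKM in Tbx20_OE hearts, against 145 and 3758 FPKM in control hearts, and Bmp10 was listed at 0 in all 4 libraries. The 7 mesothelial markers summed to 3.42 and 3.64 FPKM in Tbx20_OE hearts, against 3.47 and 33.6 FPKM in control hearts. The 7 red cell and platelet markers summed to 509 and 64.4 FPKM in Tbx20_OE hearts, against 102 and 1491 FPKM in control hearts. The 10 cardiomyocyte markers were high in every library, at 47528 and 42303 FPKM in Tbx20_OE hearts, against 45199 and 44145 FPKM in control hearts. The 4 smooth muscle markers summed to 106 and 73.3 FPKM in Tbx20_OE hearts, against 50.3 and 65.8 FPKM in control hearts. All 4 lay higher with groups apart, where 28.1% of all tested genes did so, and their median log2 fold change was 0.76. Of the 4, 2 had an unadjusted p under 0.05, where 1.52% of all tested genes did, and none was called (limma). Because control replicate 2 stood apart, fold changes of the members and medians of the lists are also given without it. Leaving it out did not lessen the smooth muscle difference, whose median log2 fold change was then 1.18. The part of these markers in the fold changes was not tested. In bulk tissue, fewer cells of a type and less RNA per cell cannot be told apart, and the read depth behind FPKM values is unknown.

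The levels of the 9 genes spanned a wide range. Mean FPKM over the 4 libraries was 62.1 for Perm1, 24.6 for Tfb2m, 17.6 for Ppargc1a, 9.60 for Polg, 8.58 for Tfam, 5.15 for Gabpa, 3.69 for Tfb1m, 2.22 for Nrf1 and 1.69 for Ppargc1b. Perm1 lay above all other members in every library. Among neighbours in this order, the ranges over libraries were apart for Perm1 and Tfb2m and for Tfb1m and Nrf1, and every other pair of neighbours overlapped. The place of Ppargc1a came from 1 library, since in the other 3 it lay between 6.88 and 11.1 FPKM, within the range of Tfam.

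**Figure D1:**
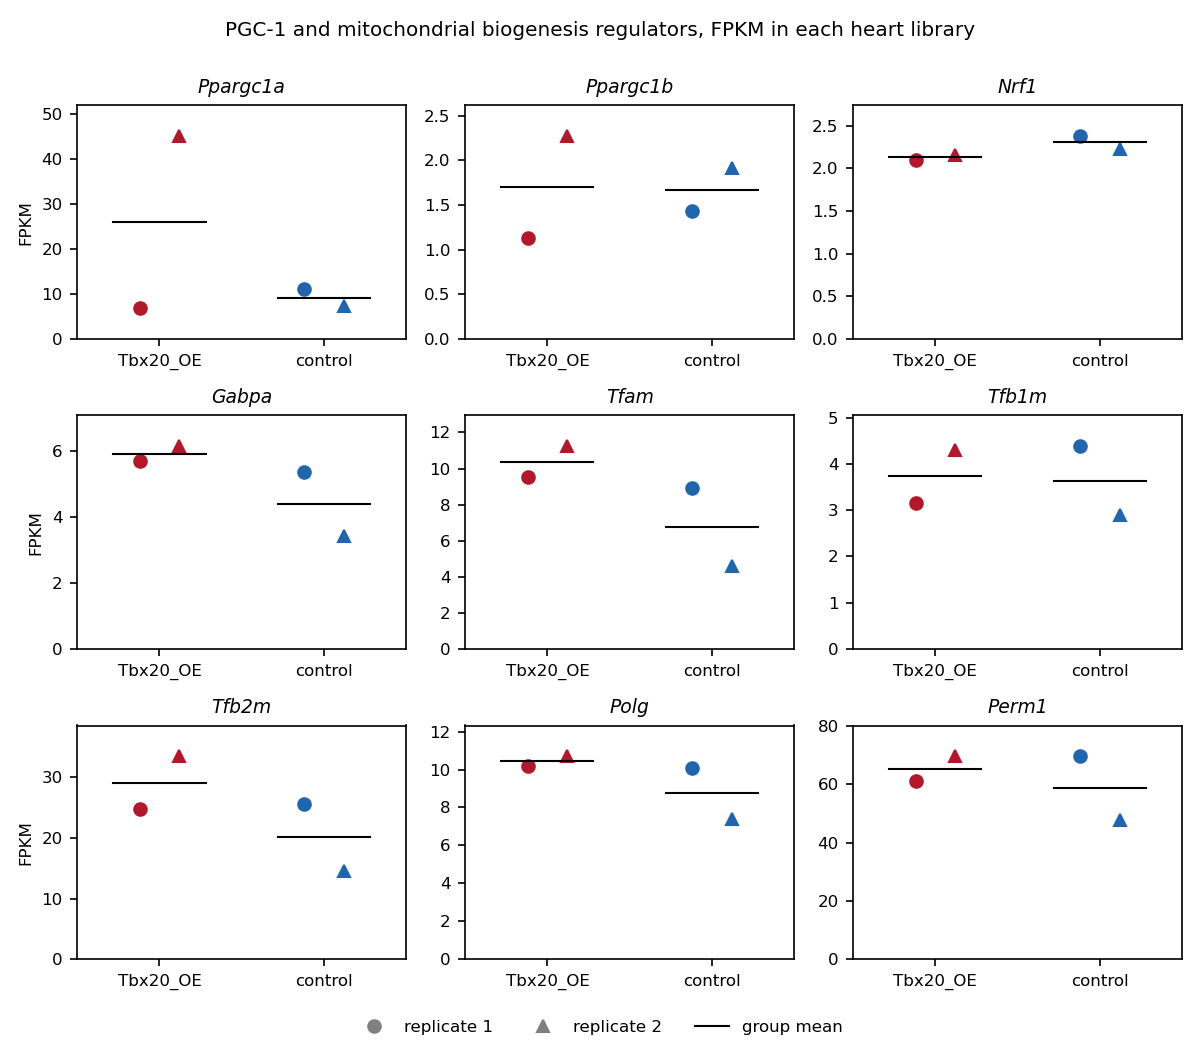
FPKM of the 9 genes in each of the 4 libraries, with the Tbx20_OE libraries left of the control libraries and a bar at each group mean. Ppargc1a stands at 45.2 FPKM in Tbx20_OE replicate 2 and at 6.88 to 11.1 FPKM in the other libraries, while Tfam and Tfb2m are lowest in control replicate 2.

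Across the contrast, 7 of the 9 genes had a higher mean log2 value in Tbx20_OE hearts and 2 a lower one, where 71.1% of all tested genes had a higher one. The Tbx20_OE libraries both lay above both controls for 3 members, Gabpa, Tfam and Polg, where 28.1% of all tested genes did so. They both lay below both controls for 1 member, Nrf1, where 4.77% of all tested genes did so, and the groups overlapped for the other 5. None of the 9 passed the limma test at an adjusted p of 0.05, with adjusted p from 0.848 to 0.991, and none had an unadjusted p under 0.05. Of all tested genes, 0.019% were called higher and 0% lower, with 160 genes at an unadjusted p under 0.05. In the authors' deposited table, 0.241% of the genes with a completed test had q under 0.05, and no member was among them. The members were chosen with this contrast known, so nothing is read from these shares. All fold changes were computed from log2(FPKM + 1), and adding 1 shrinks those of weakly expressed genes.

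The median log2 fold change of the 9 genes was 0.25, against 0.15 for all tested genes. Without control replicate 2 the medians were 0.12 for the 9 genes and 0.079 for all tested genes. Without Tbx20_OE replicate 2 the order turned, at 0.084 for the 9 genes and 0.15 for all tested genes. Corrected for GC content, which was related to the level of a library's genes in different directions, the medians were 0.083 for the 9 genes and 0.0020 for all tested genes.

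**Figure D2:**
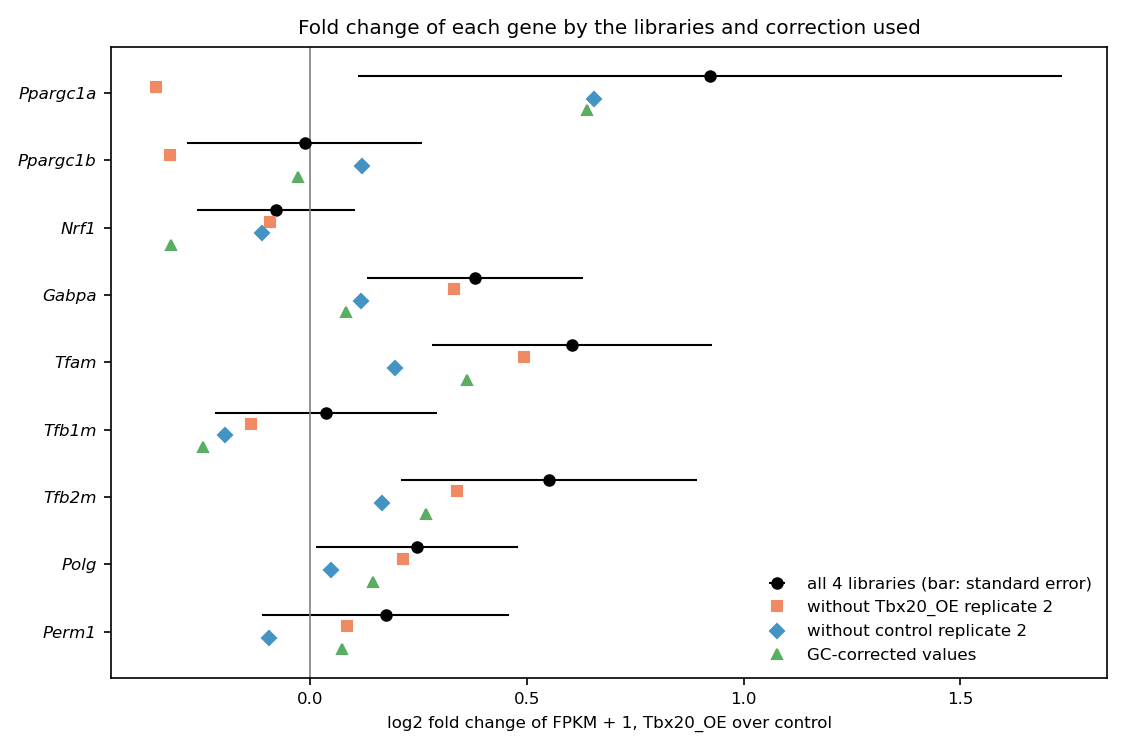
Log2 fold change of each of the 9 genes, Tbx20_OE over control, with its standard error, and the values without Tbx20_OE replicate 2, without control replicate 2 and after GC correction. Tfam is at 0.60 with all libraries and at 0.20 without control replicate 2, and Ppargc1a is at 0.92 with all libraries and at -0.35 without Tbx20_OE replicate 2.

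Ppargc1a encodes PGC-1alpha, the inducible coactivator that responds to cold, exercise, fasting and cAMP signalling. It lies on chromosome 5 from 51454249 to 51553921 on the minus strand (mm10). It measured 6.88 and 45.2 FPKM in Tbx20_OE hearts, against 11.1 and 7.37 FPKM in control hearts. Tbx20_OE replicate 2 alone was high, and Tbx20_OE replicate 1 was the lowest of the 4 libraries, so the groups overlapped. The means were 26.0 ± 27.1 FPKM in Tbx20_OE hearts and 9.24 ± 2.65 FPKM in control hearts (SD, n = 2 each), and the log2 fold change was 0.92 ± 0.81 (SE). It was -0.35 without Tbx20_OE replicate 2 and 2.20 without Tbx20_OE replicate 1, so the direction rests on that single library. Without control replicate 2 it was 0.66.

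The 2 Tbx20_OE hearts differed 6.57-fold in Ppargc1a, and the high heart stood 4.07-fold above the next library. Among all tested genes, 0.162% were at least 2-fold higher in Tbx20_OE replicate 2 than in every other library, 17 genes in all. On the log2(FPKM + 1) scale the gap of Ppargc1a to the next library was 1.93, and 6 genes, Ppargc1a included, had a gap that large. The other 5, chosen after their values were seen, were Mirlet7d, Mir1966, Snora26, Nr4a3 and Pttg1. Pttg1, which encodes securin, measured 6.86 and 54.5 FPKM in Tbx20_OE hearts, against 4.99 and 6.25 FPKM in control hearts. The same heart had the highest Tbx20, 1.48-fold above Tbx20_OE replicate 1.

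In the authors' deposited table, Ppargc1a had 36.2 FPKM in Tbx20_OE and 16.5 FPKM in control, with p = 0.00615 and q = 0.845. The authors' selection took it among 65 genes higher in Tbx20_OE, and their filter then removed it as 1 of 4 of these, because libraries of 1 condition differed more than the limit of 6-fold. On the authors' quantile-normalized FPKM it measured 6.50 and 43.6 in Tbx20_OE hearts, against 11.1 and 8.47 in control hearts, a 6.72-fold difference within Tbx20_OE. The other 8 genes were in neither direction of that selection.

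The tested genes whose pattern over the 4 libraries lay nearest to Ppargc1a, by the root mean square difference of centred log2 values, were H2-Q8 at 0.37, Gdf15 at 0.39 and Nr4a3 at 0.42. Nr4a3, an orphan nuclear receptor induced rapidly by cAMP, measured 0.142 and 10.9 FPKM in Tbx20_OE hearts, against 0.425 and 0.197 FPKM in control hearts. Gdf15, a secreted stress cytokine, measured 1.29 and 6.95 FPKM in Tbx20_OE hearts, against 3.34 and 1.16 FPKM in control hearts. H2-Q8 is a class I histocompatibility gene whose reads can be shared with near-identical copies, so its values are uncertain. Likeness over 4 libraries describes only these hearts.

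Ppargc1a is also abundant in brown fat, so adipocyte markers are given beside it. The 8 adipocyte markers summed to 24.98 and 22.9 FPKM in Tbx20_OE hearts, against 20.5 and 58.3 FPKM in control hearts, and 3 of the 8 had a mean of at least 1 FPKM. Most of the sum outside control replicate 2 was Cidea, at 22.5 and 20.2 FPKM in Tbx20_OE hearts, against 19.4 and 18.2 FPKM in control hearts. The log2 fold change of Cidea was 0.171, and 0.127 without control replicate 2. Adipoq and Cfd, also tested, went the other way with all libraries, at -0.896 and -1.503. Without control replicate 2 they were at 0.174 and 0.602. Ucp1, the defining gene of brown fat, was at 0.0825 and 0 FPKM in Tbx20_OE hearts, against 0 and 0.334 FPKM in control hearts. The part of adipocyte RNA in the Ppargc1a values was not tested.

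Ppargc1b encodes PGC-1beta, the more constitutive coactivator of the family, and lies on chromosome 18 from 61298136 to 61400431 on the minus strand. It measured 1.13 and 2.27 FPKM in Tbx20_OE hearts, against 1.43 and 1.91 FPKM in control hearts. As for Ppargc1a, the Tbx20_OE libraries held both the lowest and the highest value, 2.02-fold apart. On the log2 scale the fold change was -0.012 ± 0.27 (SE), 0.12 without control replicate 2 and 0.30 without Tbx20_OE replicate 1.

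Perm1, a muscle regulator induced by PGC-1 and ERR that acts on selected targets of theirs, lies on chromosome 4 from 156215927 to 156221307 on the plus strand and is listed under its older symbol 2310042D19Rik. It measured 61.3 and 69.6 FPKM in Tbx20_OE hearts, against 69.8 and 47.8 FPKM in control hearts. The highest Tbx20_OE and highest control values were nearly equal and the groups overlapped. Perm1 had a log2 fold change of 0.17 ± 0.28 (SE), and -0.093 without control replicate 2.

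Nrf1 encodes nuclear respiratory factor 1, which binds the promoters of respiratory chain genes and of Tfam, and lies on chromosome 6 from 30047988 to 30153458 on the plus strand. It measured 2.102 and 2.16 FPKM in Tbx20_OE hearts, against 2.38 and 2.23 FPKM in control hearts. These were the closest values of any member, with 1.13-fold between the highest and the lowest library. The Tbx20_OE libraries lay below both controls, by a log2 fold change of -0.079 ± 0.18 (SE), smaller than its error, and by -0.11 without control replicate 2.

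Gabpa encodes the DNA-binding subunit of GA-binding protein, an ETS factor also called nuclear respiratory factor 2, and lies on chromosome 16 from 84835124 to 84863778 on the plus strand. It measured 5.67 and 6.14 FPKM in Tbx20_OE hearts, against 5.36 and 3.42 FPKM in control hearts. The groups did not overlap, but control replicate 1 came close to Tbx20_OE replicate 1 and control replicate 2 was low. The log2 fold change was 0.38 ± 0.25 (SE), 0.12 without control replicate 2, and 0.083 after GC correction. Its exons share 397 bases, 6.98% of its exon bases, with Atp5j on the other strand, and because strand use in the counting is not given in the sources used here, reads there are uncertain.

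Tfam encodes the protein that coats mitochondrial DNA into nucleoids and bends its promoters for transcription, and lies on chromosome 10 from 71225477 to 71238044 on the minus strand. It measured 9.51 and 11.3 FPKM in Tbx20_OE hearts, against 8.91 and 4.63 FPKM in control hearts. The Tbx20_OE libraries lay above both controls, and the controls differed 1.92-fold from each other. The means were 10.4 ± 1.23 FPKM in Tbx20_OE hearts and 6.77 ± 3.03 FPKM in control hearts (SD, n = 2 each), and the log2 fold change was 0.60 ± 0.32 (SE).

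Tfb2m encodes the factor that opens the mitochondrial promoter with the RNA polymerase, and lies on chromosome 1 from 179528056 to 179546267 on the minus strand. It measured 24.7 and 33.5 FPKM in Tbx20_OE hearts, against 25.6 and 14.6 FPKM in control hearts. Control replicate 1 lay between the Tbx20_OE libraries, so the groups overlapped, and control replicate 2 was the lowest. Its log2 fold change was 0.55 ± 0.34 (SE).

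Tfam and Tfb2m were the members whose call depended on a single control. Without control replicate 1, which leaves control replicate 2 alone and assumes that it varies as the Tbx20_OE group does, Tfam had a log2 fold change of 1.01 (limma, adjusted p = 0.0311) and Tfb2m of 0.94 (limma, adjusted p = 0.0461). In that fit 11.4% of all tested genes were called higher and 2.26% lower. Without control replicate 2, Tfam was at 0.20 and Tfb2m at 0.17, and no member was called, where 0.0571% of all tested genes were called higher and 0.152% lower. Among the tested genes nearest to Tfb2m were Zfp367 at 0.015 and Bloc1s6 at 0.023, and Bloc1s6 measured 6.96 and 9.68 FPKM in Tbx20_OE hearts, against 7.45 and 3.73 FPKM in control hearts.

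Tfb1m encodes the methyltransferase of the small mitochondrial ribosomal RNA, needed for ribosome assembly, and lies on chromosome 17 from 3519256 to 3557713 on the minus strand. It measured 3.16 and 4.30 FPKM in Tbx20_OE hearts, against 4.39 and 2.89 FPKM in control hearts, so the groups overlapped. The log2 fold change of 0.038 ± 0.26 (SE) was -0.20 without control replicate 2 and -0.25 after GC correction. Tfb1m shares 142 exon bases, 3.93%, with Tiam2 on the other strand.

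Polg encodes the catalytic subunit of the mitochondrial DNA polymerase, and lies on chromosome 7 from 79449383 to 79466273 on the minus strand. It measured 10.2 and 10.7 FPKM in Tbx20_OE hearts, against 10.1 and 7.41 FPKM in control hearts. The groups did not overlap, although Tbx20_OE replicate 1 and control replicate 1 were within 1.01-fold. Polg had a log2 fold change of 0.25 ± 0.23 (SE), and 0.048 without control replicate 2. Polg shares 921 exon bases, 8.57%, with Fanci on the other strand.

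RefSeq promoter windows (GRCm38.p6, 250 bases before to 50 after the start) were searched for the binding motifs of the factors in this pathway. The motif CCGGAAG of GA-binding protein, whose DNA-binding subunit is the product of Gabpa, was found on either strand in 3 of the 9 windows of 8 members, where 8.86% of the 32851 windows in the table held it. The 3 windows, of Tfam, Polg and Gabpa, are printed because they hold that motif. Their GC content was 70.3%, 59.3% and 59.3% in that order, and the median over all windows was 52.7%. The part of base composition in these matches was not tested. The motif is set against no expression value, since the members were chosen by those values. Capitals mark CCGGAAG or its reverse complement and, in Gabpa, also the reverse complement of the YY1 motif AAGATGGCG, which 1.40% of windows held. The Tfam window is chr10:71237995-71238294 on the minus strand, the Polg window chr7:79466224-79466523 on the minus strand, and the Gabpa window chr16:84834874-84835173 on the plus strand, each 5′ to 3′.
Tfam: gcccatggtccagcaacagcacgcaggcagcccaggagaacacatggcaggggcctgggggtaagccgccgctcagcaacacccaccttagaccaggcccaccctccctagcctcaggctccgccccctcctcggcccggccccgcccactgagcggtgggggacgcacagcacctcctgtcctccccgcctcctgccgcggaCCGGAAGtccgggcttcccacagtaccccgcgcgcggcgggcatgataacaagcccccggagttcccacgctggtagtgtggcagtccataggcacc
Polg: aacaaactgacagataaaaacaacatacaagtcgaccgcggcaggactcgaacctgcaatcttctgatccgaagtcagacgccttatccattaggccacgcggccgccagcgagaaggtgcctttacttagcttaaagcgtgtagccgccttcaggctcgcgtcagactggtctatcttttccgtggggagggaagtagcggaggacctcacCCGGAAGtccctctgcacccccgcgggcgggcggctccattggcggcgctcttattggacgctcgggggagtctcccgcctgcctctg
Gabpa: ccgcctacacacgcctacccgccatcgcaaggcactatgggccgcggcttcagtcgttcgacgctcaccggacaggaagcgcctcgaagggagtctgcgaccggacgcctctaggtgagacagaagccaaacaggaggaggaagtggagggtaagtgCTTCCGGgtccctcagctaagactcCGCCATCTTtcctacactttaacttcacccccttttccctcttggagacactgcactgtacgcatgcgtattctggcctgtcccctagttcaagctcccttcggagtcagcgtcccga

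In these windows the motif lies 47 to 41 bases before the start in Tfam, 38 to 32 bases before it in Polg and 93 to 87 bases before it in Gabpa. Of the other letters searched on both strands, the palindromic consensus of nuclear respiratory factor 1, TNAAGGTCA for ERR, TGACGTCA for CREB and AGGTGTGA for T-box factors were in none of the members' windows. They were in 4.60%, 1.28%, 1.79% and 1.28% of all windows in the order named. The shorter CREB core TGACG, which is part of TGACGTCA, was in the windows of Polg, Ppargc1a and Tfb1m, where 20.8% of all windows held it. The shorter T-box core GGTGTG, which is part of AGGTGTGA, was in the windows of Perm1 and Tfb2m, where 19.05% of all windows held it. The RefSeq transcription start used for the Ppargc1a window lies 13804 bases from the start of the locus counted in the files. A match describes letters and not binding, and a window without a match says nothing of the factor.

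Within the groups, the 9 genes moved by library. All 9 were higher in Tbx20_OE replicate 2 than in Tbx20_OE replicate 1, where 50% of all tested genes were, and their median log2 difference was 0.22. Of the 9 genes, 8 were higher in control replicate 1 than in control replicate 2, where 60.8% of all tested genes were. Control replicate 2 was the lowest library for 6 members, where it was the lowest for 54.2% of all tested genes, and Tbx20_OE replicate 2 was the highest for 6, where it was the highest for 38% of all tested genes. Set against control replicate 1 alone, both Tbx20_OE libraries were higher for 3 members and both lower for 3, where 45.2% of all tested genes were higher and 16.8% lower. These counts describe the values by which the genes were chosen.

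**Figure D3:**
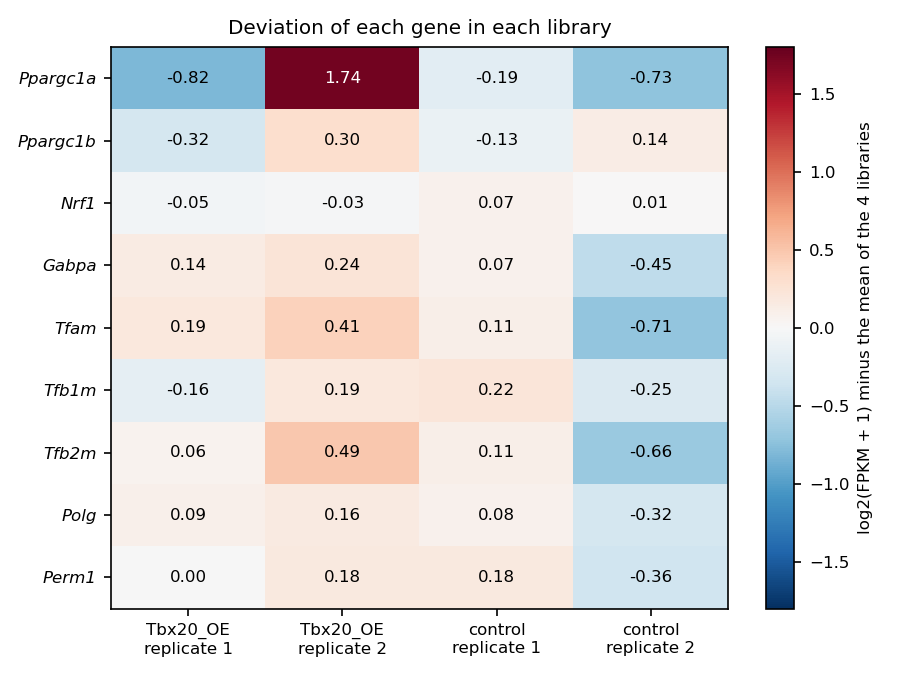
Deviation of each of the 9 genes from its own mean over the 4 libraries, on the log2(FPKM + 1) scale, with Tbx20_OE libraries left of control libraries. Median deviations are -0.0029 and 0.24 in Tbx20_OE hearts, against 0.075 and -0.36 in control hearts.

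GC content was related to expression differently in each library. The Spearman correlation across genes of a gene's deviation in a library with its transcript GC content was -0.15 and -0.38 in Tbx20_OE hearts, against -0.30 and 0.45 in control hearts. The median GC content of tested genes was 50.04%, and Tfam at 44.9%, Nrf1 at 45.4%, Tfb1m at 42.6%, Tfb2m at 42.5%, Ppargc1a at 41.7% and Gabpa at 41.4% lay under it. With GC-corrected values the log2 fold change was 0.36 for Tfam, 0.27 for Tfb2m, 0.15 for Polg, -0.32 for Nrf1 and 0.64 for Ppargc1a. The part of GC content in the differences was not tested.

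Genes that work with the 9 were followed in 9 lists of 147 distinct tested genes, and with all libraries none was called (limma, adjusted p of 0.05), while 2, Fos and Ucp3, had an unadjusted p under 0.05, as 1.52% of all tested genes did. Over the 147 genes the median log2 fold change was 0.24. It was 0.40 without control replicate 1 and 0.051 without control replicate 2. Calls among the 147 are given here only with a Tbx20_OE library left out. Leaving out Tbx20_OE replicate 1 gave 1 higher and 1 lower, where 0.0856% of all tested genes were called higher and 0.019% lower, and leaving out Tbx20_OE replicate 2 gave 0 of each, where 0.0571% were called higher and 0% lower. The counts and medians stand beside 71.1% with a higher mean and a median of 0.15 over all tested genes. Of 20 PGC-1 partner factors and co-regulators, 15 had a higher and 5 a lower mean log2 value, and the median log2 fold change was 0.17. Leaving out control replicate 2 gave 0.056, and leaving out Tbx20_OE replicate 2 gave 0.093. Among those whose groups did not overlap was Nfe2l2, the antioxidant response factor, at 26.6 and 24.8 FPKM in Tbx20_OE hearts, against 21.9 and 16.8 FPKM in control hearts. Gabpb2, a partner subunit of GA-binding protein, measured 1.79 and 1.47 FPKM in Tbx20_OE hearts, against 1.05 and 1.17 FPKM in control hearts. Its sister subunit Gabpb1, the more abundant, had groups apart the other way, at 3.07 and 3.47 FPKM in Tbx20_OE hearts, against 3.67 and 4.40 FPKM in control hearts. Prmt1, an arginine methyltransferase of PGC-1alpha, had a log2 fold change of 0.30, and 0.089 without control replicate 2. Med1, a Mediator subunit, had 0.29, and 0.19 without that library. Esrra, which encodes the ERRalpha receptor that PGC-1 drives, was lower in both Tbx20_OE hearts, at 45.9 and 43.7 FPKM, than in both control hearts, at 49.7 and 53.1 FPKM.

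Of 18 upstream regulators, 15 had a higher and 3 a lower mean log2 value, and the median log2 fold change was 0.18. It was 0.032 without control replicate 2 and 0.34 without control replicate 1. Rnf34, a ubiquitin ligase that targets PGC-1alpha, measured 14.7 and 17.8 FPKM in Tbx20_OE hearts, against 14.3 and 6.60 FPKM in control hearts. Its log2 fold change was 0.67, and 0.16 without control replicate 2. Prkaa1, a catalytic subunit of AMPK, measured 2.84 and 2.92 FPKM in Tbx20_OE hearts, against 2.28 and 2.20 FPKM in control hearts. Tfeb, the lysosomal factor that can induce Ppargc1a, measured 12.3 and 10.4 FPKM in Tbx20_OE hearts, against 13.3 and 15.0 FPKM in control hearts. After GC correction the median of the list was -0.021.

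The CREB and CRTC list holds genes induced by cAMP, the route by which Ppargc1a is switched on in many tissues, and 8 of its 11 genes were tested. Of these, 6 had a higher and 2 a lower mean log2 value, and the median log2 fold change was 0.15. It was 0.19 without control replicate 2, 0.046 without control replicate 1 and -0.10 without Tbx20_OE replicate 2. Fos, an immediate early gene, measured 0.808 and 0.412 FPKM in Tbx20_OE hearts, against 53.2 and 18.1 FPKM in control hearts, with a log2 fold change of -4.33 ± 0.50 (SE; limma, adjusted p = 0.441). The log2 fold change of Fos was -3.58 without control replicate 1 and -5.08 without control replicate 2. It was -4.51 without Tbx20_OE replicate 1 and -4.16 without Tbx20_OE replicate 2. Nr4a1 measured 4.96 and 25.2 FPKM in Tbx20_OE hearts, against 46.7 and 20.4 FPKM in control hearts, and so overlapped. Crem and Pde4b did not overlap, with log2 fold changes of 0.27 and 0.25.

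Immediate early genes are given beside Ppargc1a because it too is rapidly induced. The 16 immediate early genes summed to 194 and 212 FPKM in Tbx20_OE hearts, against 976 and 440 FPKM in control hearts. All 14 that were tested had a lower mean log2 value, 10 of them with groups apart, and none was called with all libraries, while 9 had an unadjusted p under 0.05 (limma). Of all tested genes, 4.77% lay lower with groups apart and 1.52% had such a p in either direction. For the 14 tested genes the median log2 fold change was -1.71. It was -1.39 without control replicate 1 and -2.38 without control replicate 2. It was -1.59 without Tbx20_OE replicate 1 and -2.09 without Tbx20_OE replicate 2. Atf3, in the same list, was an exception by library, at 2.48 and 48.3 FPKM in Tbx20_OE hearts, against 15.98 and 12.998 FPKM in control hearts. Ppargc1a and Atf3 were thus high in the same Tbx20_OE heart, and the part of rapid induction in that was not tested. Of the 14 tested genes, 6 were higher in Tbx20_OE replicate 2 than in Tbx20_OE replicate 1, where 50% of all tested genes were. The median log2 difference of the 14 between these hearts was -0.13.

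Alongside Polg, a further set of genes copies and packages mitochondrial DNA. Of 15 tested genes of replication and the nucleoid, 12 had a higher and 3 a lower mean log2 value, and the median log2 fold change was 0.12. It was 0.12 without control replicate 2 and 0.0092 without control replicate 1. Top1mt, the mitochondrial topoisomerase, measured 3.03 and 3.08 FPKM in Tbx20_OE hearts, against 2.85 and 1.77 FPKM in control hearts, and its log2 fold change of 0.31 was 0.075 without control replicate 2. Mgme1, a mitochondrial exonuclease, measured 4.67 and 4.27 FPKM in Tbx20_OE hearts, against 5.03 and 5.07 FPKM in control hearts. Twnk, the helicase that works with Polg, overlapped, at 6.68 and 6.17 FPKM in Tbx20_OE hearts, against 6.63 and 6.997 FPKM in control hearts. The list's median was 0.00043 after GC correction.

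Of 19 tested genes of mitochondrial transcription and RNA processing, 14 had a higher and 5 a lower mean log2 value, and the median log2 fold change was 0.33. Mterf2, a mitochondrial transcription termination factor family gene, measured 12.9 and 13.1 FPKM in Tbx20_OE hearts, against 11.9 and 5.07 FPKM in control hearts, and its log2 fold change of 0.66 was 0.12 without control replicate 2. Nsun4, which acts in mitochondrial ribosome assembly, measured 11.7 and 13.5 FPKM in Tbx20_OE hearts, against 10.2 and 7.77 FPKM in control hearts, and its log2 fold change of 0.46 was 0.28 without that library. Polrmt, the mitochondrial RNA polymerase that works with Tfam and Tfb2m, overlapped, at 7.92 and 7.54 FPKM in Tbx20_OE hearts, against 6.76 and 8.08 FPKM in control hearts. Fastkd2 and Prorp, both of which act on mitochondrial RNA, had log2 fold changes of 0.53 and 0.41, and of 0.15 and 0.12 without control replicate 2. The median of the list was 0.11 without control replicate 2 and 0.58 without control replicate 1. A list of 15 genes encoded by mitochondrial DNA was looked for by name. Of these, 0 were found among the gene symbols used, so they could not be analysed here.

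Downstream of PGC-1 and ERR, 21 of 25 metabolic target genes had a higher and 4 a lower mean log2 value, and the median log2 fold change was 0.46. Leaving out control replicate 2 gave a median of 0.028, and leaving out control replicate 1 gave 0.77. Ucp3, a mitochondrial carrier of muscle, measured 11.2 and 11.2 FPKM in Tbx20_OE hearts, against 5.96 and 4.93 FPKM in control hearts. Its log2 fold change was 0.92 ± 0.21 (SE), with an unadjusted p of 0.00539 and an adjusted p of 0.848 (limma), and both Tbx20_OE libraries lay well above both controls. It was 0.81 without control replicate 2 and 1.04 without control replicate 1. Sod2, the mitochondrial superoxide dismutase, measured 195 and 180 FPKM in Tbx20_OE hearts, against 156 and 110 FPKM in control hearts, and its log2 fold change of 0.51 was 0.26 without control replicate 2. Pdk4, a PGC-1alpha and ERR target that restrains pyruvate oxidation, measured 37.7 and 100 FPKM in Tbx20_OE hearts, against 85.6 and 23.9 FPKM in control hearts, and so overlapped.

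**Figure D4:**
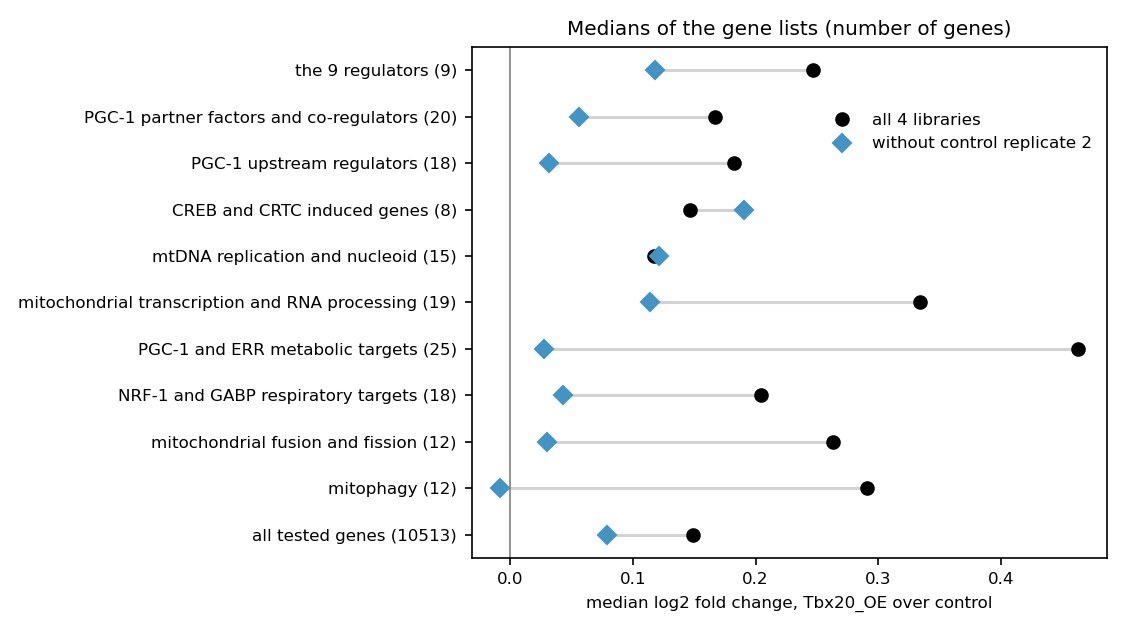
Median log2 fold change, Tbx20_OE over control, of the 9 genes, of each list of related genes and of all tested genes, with all libraries and without control replicate 2. The PGC-1 and ERR metabolic targets are at 0.46 with all libraries and at 0.028 without control replicate 2.

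Of 18 respiratory genes known as targets of nuclear respiratory factor 1 or of GA-binding protein, 11 had a higher and 7 a lower mean log2 value, and the median log2 fold change was 0.20. Sco2, a copper chaperone of cytochrome oxidase, measured 2.11 and 2.16 FPKM in Tbx20_OE hearts, against 1.61 and 0.641 FPKM in control hearts, and its log2 fold change of 0.60 was 0.26 without control replicate 2. Vdac1, the pore of the outer membrane, measured 455 and 479 FPKM in Tbx20_OE hearts, against 441 and 284 FPKM in control hearts, and its log2 fold change of 0.40 was 0.083 without that library. The median of the list was 0.043 without control replicate 2.

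Of 12 tested fusion and fission genes, 11 had a higher and 1 a lower mean log2 value, and the median log2 fold change was 0.26. It was 0.030 without control replicate 2 and 0.50 without control replicate 1. Opa1, the inner membrane fusion GTPase, measured 21.3 and 28.8 FPKM in Tbx20_OE hearts, against 19.1 and 8.54 FPKM in control hearts, and its log2 fold change of 0.89 was 0.36 without control replicate 2. Oma1, the protease that cleaves it, measured 20.8 and 19.3 FPKM in Tbx20_OE hearts, against 17.6 and 9.56 FPKM in control hearts, and its log2 fold change of 0.59 was 0.18 without that library. Of 12 mitophagy genes, 10 had a higher and 2 a lower mean log2 value, with a median log2 fold change of 0.29. It was 0.52 without control replicate 1 and -0.0077 without control replicate 2. Leaving out Tbx20_OE replicate 2 gave 0.14. Optn, a mitophagy receptor, measured 25.8 and 39.9 FPKM in Tbx20_OE hearts, against 25.6 and 18.0 FPKM in control hearts, and its log2 fold change of 0.56 was 0.32 without control replicate 2.

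The 2 Tbx20_OE hearts, which were 6.57-fold apart in Ppargc1a, were also compared over the lists. From Tbx20_OE replicate 2 over replicate 1, the median log2 difference was -0.0016 over the 25 PGC-1 and ERR metabolic targets, of which 12 were higher in replicate 2. It was -0.14 over the 18 respiratory targets, of which 6 were higher, and 0.00024 over all tested genes, of which 50% were higher. It was 0.21 over the 12 mitophagy genes, of which 10 were higher. Over 20 partner factors it was 0.12 (12 higher), over 18 upstream regulators 0.065 (10 higher) and over 8 CREB and CRTC genes 0.072 (4 higher). Over 15 replication genes it was 0.021 (8 higher), over 19 transcription genes 0.015 (10 higher) and over 12 fusion and fission genes -0.070 (5 higher).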

How the data were processed

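RNA was sequenced from 4 hearts. Libraries followed a standard Illumina preparation of Trizol RNA, per the labels' protocols. The submitters' processing notes name mm10, TopHat2 2.0.13 and Cufflinks 2.1.1, without the annotation release or strand setting. The authors deposited FPKM per gene and library, in a series-wide table used here and in files per library, and a quantile-normalized FPKM table. Their comparison table holds cuffdiff 2.1.1 output, per the file headers: FPKM per condition, p-values and q-values. The deposited selection flags are scores of 0 or 1 and were used only to describe the authors' selection. In all 4 libraries the values of the 9 genes were the same in the files per library.

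Groups were taken from the genotype labels. Values were log2(FPKM + 1) for the 10513 genes with a mean of at least 1 FPKM, tested with limma 3.58.1 (R 4.3.3, mean-variance trend, group as the only term) and Benjamini-Hochberg adjustment at 0.05. Genes left out were 4 with a failed estimate and 1 not matched between files. The test was checked on simulated data with independent errors and no library that stood apart. That check therefore does not cover a library such as control replicate 2. The members and lists were chosen with earlier results of these data known. All 9 members are named; of each list, genes come from the up to 4 largest changes whose groups did not overlap; of the 3 genes nearest to each of Ppargc1a and Tfb2m, the members with the widest range on the log2(FPKM + 1) scale, 1 is not reported here. Esrra, Nr4a1, Pdk4, Polrmt, Twnk, Atf3, Pttg1, Cidea, Adipoq, Cfd, Gabpb1 and Ucp1 were chosen after their values were seen. Transcript GC content came from GENCODE M21, which 99.5% of tested genes matched, and was corrected in 10 bins per library as an alternative. The other alternatives were the filter, the pseudocount, the source of FPKM, the scaling, the limma settings, blocks and each library left out. Python 3.11.15, matplotlib 3.10.9, scipy 1.17.1, numpy 2.4.6 and pandas 2.3.3 were used for the other steps.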

Additional observations from a re-analysis of the deposited data

How the results depend on the processing

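Of the alternatives, 8 could move a member's fold change: the smaller pseudocount, 2 scalings, GC correction and each of 4 libraries left out. Of the 72 values they gave, 9 had another sign than with all libraries, and Nrf1, Gabpa, Tfam, Tfb2m and Polg kept their sign in these 8. Nrf1 was at -0.24 with median centring, -0.21 with quantile-normalized FPKM and -0.32 after GC correction. Genes called higher numbered 2; they were 1 with a pseudocount of 0.1, 1 with no filter, 1 with the files per library, and 6 to 1195 with a library left out. Genes called lower numbered 0, and 0 to 238 with a library left out. The replicate numbers were not shown to pair the hearts (correlation of their differences across genes -0.45); a replicate block gave 3 genes called lower. A crossed block, chosen after seeing the data, gave 12 called higher and 18 lower, and under neither block was a member called. Among the list medians that changed were 0.0065 (median centring) and 0.022 (quantile-normalized FPKM) for partner factors. Upstream regulators were at -0.021 (GC correction), and CREB and CRTC genes at -0.61 (mean of at least 5 FPKM). Replication genes were at 0.15 (pseudocount 0.1), 0.072 (mean of at least 5 FPKM), -0.044 (median centring), -0.027 (quantile-normalized FPKM) and 0.00043 (GC correction). Respiratory targets were at 0.043 (median centring), 0.076 (quantile-normalized FPKM) and 0.083 (GC correction). GC correction also gave 0.11 for transcription, 0.23 for PGC-1 and ERR targets, 0.071 for fusion and fission and 0.19 for mitophagy. With a library left out the medians ran from 0.056 to 0.27 for partner factors and 0.032 to 0.34 for upstream regulators. They ran from -0.10 to 0.19 for CREB and CRTC genes, 0.0092 to 0.14 for replication and 0.11 to 0.58 for transcription. For PGC-1 and ERR targets they ran from 0.028 to 0.77 and for respiratory targets from 0.043 to 0.23. For fusion and fission they ran from 0.030 to 0.50 and for mitophagy from -0.0077 to 0.52. The causes were not tested. Depth is unknown, so counting error could not be given.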

Other observations

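Of the genes at least 2-fold higher in Tbx20_OE replicate 2 than in all other libraries, a few that the account of Ppargc1a does not cover are given as values, chosen after they were seen. Hbegf, a growth factor of the epidermal growth factor family, measured 4.75 and 12.3 FPKM in Tbx20_OE hearts, against 5.28 and 3.69 FPKM in control hearts. Nebl, which encodes the Z-disc protein nebulette, measured 3.01 and 7.76 FPKM in Tbx20_OE hearts, against 3.19 and 2.02 FPKM in control hearts. Agt, angiotensinogen, measured 1.43 and 14.3 FPKM in Tbx20_OE hearts, against 1.62 and 4.88 FPKM in control hearts.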
